A study of Mus musculus with 4 samples.

Results

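Resident macrophage genes were followed in mammary tumors of mice: Folr2, Lyve1, Cd163, Mrc1, F13a1, Cd209f, Ccl8, Retnla, Ednrb and Timd4. They are 10 of the 32285 genes listed in the count files, and all 10 were found there by symbol. They were chosen by their known role and with their measured levels in the macrophages of these libraries in view, so those levels, also against other cell types, are a description without a test. Single-cell RNA sequencing was carried out on the tumors of 4 mice at 17 to 18 weeks of age, with 1 library per mouse. All mice carried PyMT, the viral oncogene that starts the tumors under the mouse mammary tumor virus (MMTV) promoter, and were Frmd8 fl/fl, with both copies of Frmd8 flanked by sites for the recombinase Cre. The floxed and the PyMT lines were on a C57BL/6 background, and that of the MMTV-Cre line is not given in the sources used here. The 2 Cre- mice (replicates 1 and 3) had no Cre, and the 2 Cre+ mice (replicates 2 and 4) had MMTV-Cre, which acts in mammary epithelium. The study compared them to learn what loss of Frmd8 does in the tumor, and macrophages are not the cells in which this Cre is meant to act.

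Resident macrophages settle in a tissue and renew there, and in the mammary gland and its tumors they lie along vessels and in the connective tissue around the ducts. They clear dying cells, debris and proteins with scavenger and lectin receptors, and the resident type is often low in the class II molecules that present antigen to T cells. Other tumor macrophages arise from blood monocytes that enter the tumor. In bulk sums of macrophage RNA, fewer cells of a type and less RNA of a gene per cell cannot be told apart.

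A unique molecular identifier (UMI) marks 1 captured RNA molecule, and a barcode marks 1 droplet, usually 1 cell. Barcodes with at least 2000 UMIs and at most 20% mitochondrial UMIs were kept, which left 4501 and 5174 in Cre- replicates 1 and 3 and 5163 and 6054 in Cre+ replicates 2 and 4. Of these, 931, 1661, 1514 and 2110 were macrophages, defined by at least 10 UMIs of C1qa, C1qb and C1qc (the chains of complement C1q) per 10000 UMIs. The class is a range of this score, with 40 to 154 macrophages per mouse at 10 to 20 and another 42 to 121 barcodes at 5 to 10. The median depth of the macrophages was 12073, 14756, 13718 and 19234 UMIs in the same order. Cre+ replicate 4 stood apart: it was made with an earlier version of the counting software and deposited with all barcodes, and these differences cannot be told apart from the mouse. In macrophages, Adgre1, which encodes F4/80, had 197 to 338 CPM (UMIs per 1000000 UMIs of the class) against 0.757 to 1.62 in epithelial barcodes, a marker that the rule did not use. Such markers do not all separate macrophages from monocytes. Lyz2 had 8782 CPM in macrophages and 13254.5 in monocyte barcodes of Cre+ replicate 2, but 10098 and 7657 in those of Cre- replicate 1. Markers of another lineage, at 10 or more UMIs per 10000, were found in 6.23%, 22.5%, 6.21% and 5.50% of the macrophages. Pairs of libraries shared 5 to 14 barcodes.

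The set of RefSeq promoters used here covered 9 of the 10 genes, all but Lyve1. These were 11 promoters (build GRCm38.p6, from 250 bases before to 50 after the transcript start). The 3 shown are those with TATAAA, the TATA box, near the usual distance before the start, and they belong to the secreted proteins Ccl8 and Retnla and to Cd209f. Capitals mark the TATA box, the core bound by ETS factors such as PU.1, the master factor of macrophages (GGAAGT), and a half-site of MAF factors (TGCTGA), on either strand. The Retnla promoter lies at chr16:48842359-48842658 on the plus strand, the Ccl8 promoter at chr11:82114935-82115234 on the plus strand and the Cd209f promoter at chr8:4105715-4106014 on the minus strand.
Retnla: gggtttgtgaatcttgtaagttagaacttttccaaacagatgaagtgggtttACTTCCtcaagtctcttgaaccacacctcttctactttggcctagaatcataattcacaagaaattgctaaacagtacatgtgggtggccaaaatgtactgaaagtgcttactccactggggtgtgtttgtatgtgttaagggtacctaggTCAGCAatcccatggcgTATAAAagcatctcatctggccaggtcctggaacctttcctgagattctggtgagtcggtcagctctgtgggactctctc
Ccl8: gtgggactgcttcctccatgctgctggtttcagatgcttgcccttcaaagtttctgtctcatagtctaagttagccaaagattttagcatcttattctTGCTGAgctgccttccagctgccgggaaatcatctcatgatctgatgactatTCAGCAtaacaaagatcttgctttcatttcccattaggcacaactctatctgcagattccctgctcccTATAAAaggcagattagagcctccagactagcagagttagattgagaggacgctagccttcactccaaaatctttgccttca
Cd209f: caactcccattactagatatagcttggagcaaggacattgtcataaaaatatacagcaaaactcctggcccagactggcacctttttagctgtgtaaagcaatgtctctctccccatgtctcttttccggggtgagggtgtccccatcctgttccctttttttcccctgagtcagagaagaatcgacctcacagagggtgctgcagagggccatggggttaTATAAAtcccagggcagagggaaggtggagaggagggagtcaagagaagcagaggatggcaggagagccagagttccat
The TATA box match began at position -30 in Retnla, -32 in Ccl8 and -29 in Cd209f, counted from the start. It was in 3 of the 11 promoters and in 13.6% of all 32851 promoters of the table. GGAAGT was in 5 of the 11 (23.8% of all promoters) and TGCTGA in 6 of the 11 (19.5% of all). A match describes the letters, not a bound site.

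The receptors of the group were present in the macrophages of every mouse, with the same mice highest and lowest for each. Mrc1, the mannose receptor CD206, had 486 and 590.0 CPM in Cre- replicates 1 and 3 and 749 and 220.0 in Cre+ replicates 2 and 4. Cd163, the scavenger receptor for hemoglobin bound to haptoglobin, had 58.9 and 83.8 in the Cre- mice and 177 and 14.8 in the Cre+ mice. Folr2, a folate receptor, had 167 and 223 in the Cre- mice and 322 and 49.8 in the Cre+ mice. For each of the 3 genes the Cre+ mice were the highest and the lowest of the 4, and both Cre- mice lay between them.

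Lyve1, a hyaluronan receptor shared with lymphatic vessels, had 31.0 and 78.5 CPM in Cre- replicates 1 and 3 and 163 and 13.4 in Cre+ replicates 2 and 4. Cd209f, a C-type lectin of the DC-SIGN family, had 47.4 and 97.7 in the Cre- mice and 247 and 8.31 in the Cre+ mice. Ednrb, the endothelin receptor type B, had 57.1 and 85.4 in the Cre- mice and 190.5 and 15.6 in the Cre+ mice. These receptors repeated the order of Mrc1, with wider gaps: the macrophages of Cre+ replicate 2 held 12.2 times as much Lyve1, 29.7 times as much Cd209f and 12.2 times as much Ednrb as those of Cre+ replicate 4, against 3.40 times as much Mrc1. Timd4 (TIM-4), a receptor for the phosphatidylserine of dying cells, was near the limit of detection, with 37 and 58 UMIs in all in the Cre- mice (2.51 and 2.04 CPM) and 125 and 7 in the Cre+ mice (5.37 and 0.153 CPM). Cd209f has close paralogs, so its reads may be shared with them in part.

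Among the secreted members, Retnla differed most between the mice, and more than any other of the 10 genes. Ccl8, a chemokine that draws monocytes and T cells, had 803 and 1312 CPM in Cre- replicates 1 and 3 and 2102 and 345 in Cre+ replicates 2 and 4. Retnla (RELM alpha), which interleukin-4 induces in alternatively activated macrophages, had 1214 and 1410.1 in the Cre- mice and 2858 and 61.8 in the Cre+ mice, a ratio of 46.2 between the Cre+ mice. F13a1, the A chain of coagulation factor XIII, had 300.0 and 433 in the Cre- mice and 693 and 95.4 in the Cre+ mice. Thus Cre+ replicate 2 was highest and Cre+ replicate 4 lowest for 10 of 10 genes, and the genotypes overlapped for each of them. Among all 14117 genes tested in macrophages, 20.2% had this order. Of 23 other genes known from resident-type macrophages, a list chosen with these data known, 16 had it, and Pf4, a platelet chemokine that macrophages also make, did not, with 484 and 650.3 in the Cre- mice and 526 and 838 in the Cre+ mice.

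**Figure D1:**
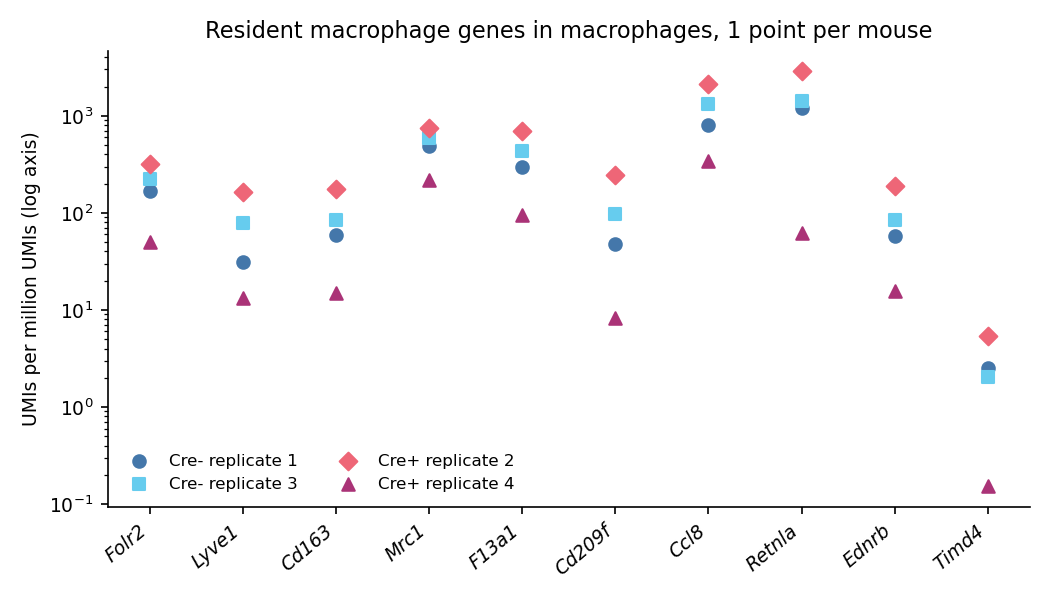
Level of each of the 10 genes in the macrophages of each mouse, in CPM on a log axis, with 1 point per library. Cre+ replicate 2 is the highest point and Cre+ replicate 4 the lowest point of every gene, and the Cre- mice lie between them.

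The order of the mice was not shared by the fibroblast markers in macrophages as a whole, but 1 extreme was. Summed Col1a1, Col3a1 and Dcn were at 4.57 and 8.08 UMIs per 10000 in the macrophages of Cre- replicates 1 and 3 and at 6.37 and 0.986 in those of Cre+ replicates 2 and 4, so Cre+ replicate 4 was lowest here too. The part of these markers in the levels of the 10 genes was not tested. Leaving out the barcodes with markers of another lineage changed the 40 levels by a factor of 0.989 to 1.17. A limit on depth (fewer than 30000 UMIs and 200 to 5000 genes) changed them by a factor of up to 1.94. With it, Retnla was at 118 CPM in Cre+ replicate 4 against 2939 for Cre+ replicate 2, and Cd209f at 15.1 against 276. For both genes the gap between the Cre+ mice was narrower than above. Lyve1, at 13.7 against 186, and Mrc1, at 230 against 829, had slightly wider gaps, and the other members narrower ones.

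By level per class, the members fell into those found mostly in macrophages and those shared with another class. Classes were set by summed markers, at least 5 UMIs per 10000 (such as Epcam, Krt8 and Krt18 for epithelial barcodes), and the means below are over 4 mice with their SD. Folr2 averaged 190 ± 114 CPM (SD, n = 4) in macrophages and 7.10 ± 6.21 in granulocytes, the next class, whose range did not overlap. Cd163 averaged 83.5 ± 68.3 in macrophages and 6.57 ± 3.57 in monocytes, again without overlap. Cd209f averaged 100 ± 104 in macrophages, from 9598 UMIs, and 5.38 ± 3.94 in B cells, the next class, from 3 UMIs. Here the ranges overlapped across mice, with 8.31 CPM in the macrophages of Cre+ replicate 4 and 8.97 in the B cells of Cre- replicate 1. Within each mouse Cd209f was higher in macrophages than in B cells. T/NK barcodes held 13 UMIs of Cd209f, endothelial barcodes 11 and epithelial barcodes 177. Macrophages held 86.4% to 97.3% of the Folr2 UMIs of kept barcodes, 94.96% to 96.3% of those of Cd163 and 94.4% to 97.5% of those of Cd209f. This share does not set these genes apart from all shared ones. It was 93.1% to 97.1% for Mrc1, 88.9% to 95.3% for Ccl8 and 83.6% to 93.0% for F13a1, but 39.0% to 79.6% for Ednrb.

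Mrc1, F13a1 and Retnla were shared with the monocyte class (Ly6c2, Chil3, Ccr2 and Plac8, with C1q below its limit). Retnla had 1554, 1481 and 1453 CPM in the monocytes of Cre- replicates 1 and 3 and Cre+ replicate 2 and 196 in those of Cre+ replicate 4. The monocyte level of Retnla was thus also lowest in Cre+ replicate 4, and over mice it overlapped the macrophage level. Within Cre- replicates 1 and 3 and Cre+ replicate 4 it was above the macrophage level (1214, 1410.1 and 61.8 CPM). In Cre+ replicate 2 it was below the macrophage level (2858 CPM). F13a1 averaged 198 ± 58.5 in monocytes against 380 ± 251 in macrophages, and Mrc1 averaged 173 ± 91.4 against 511 ± 222. Mrc1 was also found in dendritic barcodes, at 62.4 ± 42.0. For F13a1 and Mrc1 the ranges of monocytes and macrophages overlapped across mice. Within each mouse Mrc1 was higher in macrophages. F13a1, at 153 to 282 CPM in monocytes, was higher in monocytes of Cre+ replicate 4 (95.4 in its macrophages) and higher in macrophages of the other mice.

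Ccl8 was also found in fibroblasts, at 143, 107, 128 and 59.8 CPM in Cre- replicates 1 and 3 and Cre+ replicates 2 and 4, with Cre+ replicate 4 again lowest. This fibroblast level was 10.4 times lower than the macrophage mean and did not overlap it. Ednrb was highest in endothelial barcodes, with 271, 511, 534 and 688 in the same order of mice. There Cre+ replicate 4 was the highest of the 4 mice, the opposite of its place in macrophages. Pericytes held 111 ± 116 CPM of Ednrb, which overlapped both classes.

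Timd4 was not highest in macrophages. It had 34.1, 14.6, 1.88 and 6.66 CPM in dendritic barcodes of Cre- replicates 1 and 3 and Cre+ replicates 2 and 4, from 17, 18, 1 and 2 UMIs. With these counts the dendritic, monocyte and macrophage ranges overlapped.

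Lyve1 in endothelium came almost wholly from few barcodes. Lyve1 had 38.7 and 1.21 CPM in the endothelial class of Cre- replicates 1 and 3 and 53.7 and 1.03 in that of Cre+ replicates 2 and 4. Of the 215 UMIs, 210 were in the 24 endothelial barcodes with at least 2 of the lymphatic genes Prox1, Mmrn1 and Flt4, and 5 were in the 522 others. Only 5 of the 24 were Lyve1-positive, and 4 of them, with 115 UMIs in 2 barcodes of Cre- replicate 1 and 92 in 2 of Cre+ replicate 2, held nearly all of these UMIs. Ednrb, in contrast, was found in both kinds of endothelial barcode.

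**Figure D2:**
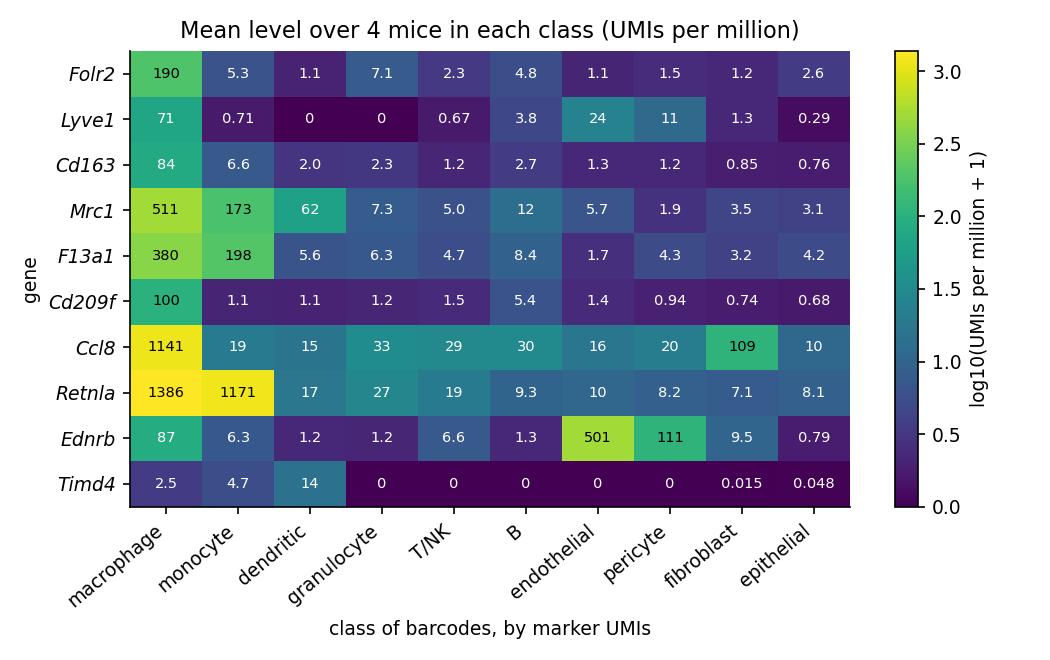
Mean level of each gene over 4 mice in 10 classes of barcodes, in CPM (numbers) and as log10(CPM + 1) (color). Folr2, Cd163 and Cd209f stand out in macrophages, and Retnla, F13a1 and Mrc1 also in monocytes. Ednrb is highest in endothelial barcodes. Ccl8 is highest in macrophages, with fibroblasts next at a much lower level.

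Each gene was detected in a minority of the macrophages once depth was made equal. To compare cells of unequal depth, each macrophage was thinned at random to 2000 UMIs, and a gene was detected if 1 UMI remained. Mrc1 was the most widely detected, in 37.6% and 43.9% of the macrophages of Cre- replicates 1 and 3 and in 46.2% and 19.9% of those of Cre+ replicates 2 and 4 (62.1%, 68.3%, 65.0% and 40.3% without thinning). In epithelial barcodes, which should lack it and had median depths of 14254.5 to 25376 UMIs, Mrc1 was detected in 0.510% to 1.65% after thinning. Retnla was detected in 12.2%, 18.6%, 29.1% and 1.94% of the macrophages, and Folr2 in 19.5%, 22.2%, 25.4% and 7.06%. Retnla was also detected in 1.00%, 3.46%, 6.79% and 0.746% of the epithelial barcodes, in the same order of mice. Its variance over macrophages was 42.1 to 70.2 times its mean, against 2.07 to 2.96 for Folr2. In macrophages with at least 1 UMI of the gene, Retnla had a mean of 13.9 to 31.0 UMIs of 2000 and Folr2 a mean of 1.54 to 2.497. Retnla thus varied more between cells than Folr2 in each mouse, while the share of cells with Retnla was lower than that with Folr2 in 3 mice and higher in Cre+ replicate 2.

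The number of genes detected in the same cell differed from independent detection. Of the 10, at least 3 were detected in 21.5% of the macrophages of Cre- replicate 1 (95% exact binomial interval 18.9 to 24.3), 28.1% of Cre- replicate 3 (25.9 to 30.3), 33.4% of Cre+ replicate 2 (31.0 to 35.9) and 6.73% of Cre+ replicate 4 (5.70 to 7.88). The intervals cover counting error only. None was detected in 50.2%, 36.6%, 38.2% and 72.8%, while independent detection at the same shares would leave 19.2%, 11.8%, 5.98% and 54.9% without any. In each mouse more macrophages than that lacked all 10. For at least 3 genes, independent detection would give 15.7%, 25.8%, 42.9% and 1.19%, so the observed share was above it in 3 mice and below it in Cre+ replicate 2. Without thinning, at least 3 were detected in 37.2%, 49.7%, 48.3% and 15.0%, against 43.5%, 64.8%, 76.3% and 8.14% for independent detection, below it in 3 mice and above it in Cre+ replicate 4.

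All 36 pairs of the 9 genes other than Timd4 were found together more often than the product of their shares in each of the 4 libraries. The median ratio over libraries ran from 1.76 for Ccl8 with Retnla to 6.77 for Lyve1 with Cd209f. Folr2 was detected in 78.6%, 80.6%, 84.6% and 81.8% of the Lyve1-positive macrophages of Cre- replicates 1 and 3 and Cre+ replicates 2 and 4. Lyve1 was detected in 24.2%, 29.3%, 48.7% and 18.1% of the Folr2-positive ones. Lyve1-positive macrophages were therefore mostly a part of the Folr2-positive ones, in each mouse. This was not particular to Folr2. In the same order of mice, F13a1 was detected in 100%, 89.6%, 96.8% and 90.9% of the Lyve1-positive macrophages. Mrc1 was detected in 96.4%, 92.5%, 95.5% and 97.0% of them, and Cd163 in fewer, at 51.8%, 44.0%, 55.7% and 39.4%.

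**Figure D3:**
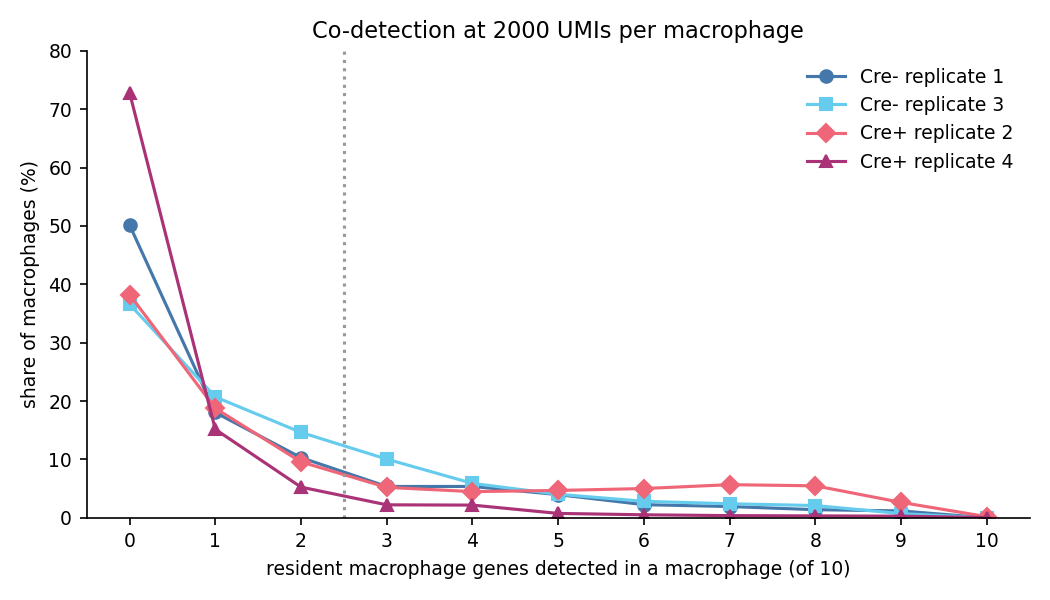
Share of macrophages (%) of each mouse in which 0 to 10 of the 10 genes were detected after thinning to 2000 UMIs per cell; the dotted line marks at least 3. Cre+ replicate 2 has a second rise at 7 and 8 genes, and 72.8% of the macrophages of Cre+ replicate 4 are at 0.

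The share with at least 3 genes was compared between genotypes as 1 value per mouse. It was 24.8 ± 4.65% (SD, n = 2) for Cre- and 20.1 ± 18.9% for Cre+, and Cre+ minus Cre- gave -4.69 points (exact two-sided permutation test, p = 1, where 0.333 is the smallest p that 2 against 2 mice allow). Without Cre+ replicate 4 the sign turned, to 8.65 points, and without Cre+ replicate 2 the difference was -18.0 points. The Cre+ mice thus differed more from each other than the genotypes did.

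The summed level of these genes moved with depth in each mouse, but single genes did not all follow the sum. In Cre- replicate 3, Folr2 had 173 CPM in macrophages of 2000 to 5000 UMIs and 206 in those of 30000 or more. Cd163 had 89.5 and 36.9 in the same cells. The summed level of the 10 genes was highest in macrophages of 5000 to 10000 UMIs, at 7079.7, 5652, 9450.3 and 1961 CPM in Cre- replicates 1 and 3 and Cre+ replicates 2 and 4. It was lower, at 1636, 3311, 5510.1 and 528, in those of 30000 UMIs or more. The summed level was lowest in the deepest macrophages of every mouse, and within each range of depth Cre+ replicate 4 was below the other mice. The part of depth in the differences between mice was not tested.

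Macrophages with at least 3 of the 10 genes detected after thinning (member-rich, 200, 466, 506 and 142 cells) were set apart from those with none (member-free, 467, 608, 579 and 1537 cells), and all other genes were then compared between them. Within member-rich cells the mice were closer than over all macrophages. Mrc1 had 1540.2 to 1988 CPM there, a ratio of 1.29 between the highest and lowest mouse, and Folr2 had 541 to 955, a ratio of 1.76. Lyve1, Ednrb, Cd209f and Timd4 still differed by 2.92, 2.62, 5.58 and 7.61 times between the highest and lowest mouse, less than over all macrophages. Retnla differed most, with 5827 and 5310.0 in Cre- replicates 1 and 3 and 8116 and 506 in Cre+ replicates 2 and 4, a ratio of 16.0. These values follow from how the cells were set apart and have no test.

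Most other resident-type genes were higher in member-rich cells, and the class II genes were lower. Counts were summed per mouse and set, and compared with edgeR's quasi-likelihood test with the mouse as a block, without the 10 genes. Of 12603 genes tested, 2431 (19.3%) were higher and 2621 (20.8%) lower at an adjusted p (Benjamini-Hochberg) under 0.05. Of 24 other resident-type genes, 23 were tested, 21 were higher and 0 lower, with a median log2 fold change of 3.23 against -0.06 over all genes tested. The list was chosen with earlier results of these data known, and it was not adjusted on its own. It holds Cd209a, Cd209b, Cd209d and Cd209g, paralogs of Cd209f, which helped to set the cells apart. Their reads may be shared with Cd209f in part, and their part in the count and median was not tested.

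Receptors and lectins of the list are given first. Vsig4, the complement receptor CRIg, had 53, 116, 307 and 103 UMIs in the member-rich cells of Cre- replicates 1 and 3 and Cre+ replicates 2 and 4 against 0, 0, 2 and 2 in the member-free cells (log2 fold change 8.61 ± 0.33 (SE), edgeR adjusted p = 1.95e-05). Clec10a, a lectin for galactose and its derivatives, was at 373 ± 136 CPM (SD, n = 4) in member-rich and 8.88 ± 0.89 in member-free cells (5.20 ± 0.21, edgeR adjusted p = 2.46e-05). Both genes were higher in 4 of 4 mice. The SE here is the size of the log2 fold change divided by the square root of the test's F statistic. It is only rough where 1 set holds almost no UMIs, as for Vsig4. Cd209d and Cd209g, paralogs of Cd209f whose reads may be shared with it in part, rose by 8.38 ± 0.30 and 8.68 ± 0.28 on the log2 scale. Fcna, a ficolin that starts the lectin pathway of complement, rose by 6.13 ± 0.43.

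A transcription factor, growth factors and a carrier protein of the list rose as well. Maf, a transcription factor of resident macrophages, was at 808 ± 44.9 CPM in member-rich and 100 ± 17.7 in member-free cells (log2 fold change 2.90 ± 0.11, edgeR adjusted p = 1.65e-05). Gas6, the ligand of the receptors for dying cells, rose by 3.48 ± 0.20 and Igf1, a growth factor, by 1.82 ± 0.15. Selenop, which carries selenium, had 3135 ± 619 CPM in member-rich against 537 ± 175 in member-free cells. Cd5l, an inhibitor of apoptosis in macrophages, did not pass (log2 fold change 2.14 ± 1.29, edgeR adjusted p = 0.224) and was higher in 3 of 4 mice, with 11 UMIs in member-rich against 245 in member-free cells of Cre- replicate 1. Slc40a1, the iron exporter ferroportin, did not pass either (0.51 ± 0.82, edgeR adjusted p = 0.650), and Marco, a scavenger receptor, had too few UMIs to be tested.

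All 7 class II genes were lower in member-rich cells of 4 of 4 mice. H2-Ab1, a class II beta chain, had 1941, 2145, 2799 and 927 CPM in the member-rich cells of Cre- replicates 1 and 3 and Cre+ replicates 2 and 4, against 6871, 5593, 10065 and 5421 in the member-free cells. The 2 sets did not overlap, and the log2 fold change was -2.02 ± 0.19 (edgeR adjusted p = 0.000412). Ciita, the master activator of class II genes, fell by 1.05 ± 0.15 on the log2 scale, and Cd74, the invariant chain, by 1.76 ± 0.21. The median of the list was -1.69.

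Of 10 genes of lipid-associated and tumor macrophages, 0 were higher and 2 lower. These were Mmp12, a metalloelastase (-4.18 ± 0.72, edgeR adjusted p = 0.00394), and Cd9, a tetraspanin (-1.55 ± 0.22, edgeR adjusted p = 0.00182). Spp1, which encodes osteopontin, had a log2 fold change of -0.55 ± 0.72 and was higher in 2 of 4 mice, and Trem2, a lipid receptor, had -0.07 ± 0.18. Of 6 cycling genes 0 passed the test, and all 6 had negative values, from -1.03 to -0.73 (smallest edgeR adjusted p = 0.0639, for Mki67). Of 5 interferon genes 0 were higher and 1, the chemokine Cxcl10, was lower (-0.94 ± 0.18).

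Of 6 monocyte genes, 4 were higher and 0 lower. Ccr2, the receptor that brings monocytes out of the blood, had 453, 369, 739 and 173 CPM in the member-rich cells of Cre- replicates 1 and 3 and Cre+ replicates 2 and 4 against 142, 111, 98.7 and 38.8 in the member-free cells (1.99 ± 0.20, edgeR adjusted p = 0.000485). Ccr2 was thus higher in the member-rich cells of each mouse. Mrc1, F13a1 and Retnla, which helped to set the cells apart, were also found in the monocyte class. The part of this in the calls of monocyte genes was not tested. Ly6c2, the Ly-6C antigen of classical monocytes, did not pass (-0.77 ± 0.35, edgeR adjusted p = 0.123). Of the 6 general macrophage genes, 4 were higher, among them Adgre1 (0.95 ± 0.08) and Csf1r, the receptor for CSF1 (0.38 ± 0.08), while Cd68, a lysosomal protein, did not pass (-0.08 ± 0.12, edgeR adjusted p = 0.630).

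Outside the lists, the genes named here were those with the largest changes in the same direction in all 4 mice and a mean of at least 20 CPM. The higher ones were C6, Chp2, Gfra2, Bmp2, Lyz1, Cxcl13, Fam43a, Slc28a2, Ms4a8a and Saa3, with log2 fold changes of 4.74 to 8.50. C6, a component of the complement attack complex, had 164, 421, 1069 and 162 UMIs in the member-rich cells of Cre- replicates 1 and 3 and Cre+ replicates 2 and 4 against 3, 1, 3 and 4 in the member-free cells. Bmp2, a growth factor of the TGF-beta family, had 60.4 ± 14.1 CPM against 0.923 ± 0.709. C6 and Bmp2 were thus low in the member-free cells of each mouse, and macrophages with 1 or 2 of the 10 genes were in neither set. Lyz1 shares reads with its near copy Lyz2, which was also higher (0.96 ± 0.18).

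The lower ones were H2-M2, Hbb-bs, Grasp, Zmynd15, Spint1, Itgax, Il1a, Il1r2, Tnfsf13b and AA467197, with log2 fold changes of -7.74 to -3.37. Itgax, the integrin CD11c, had 65.9, 13.8, 8.66 and 17.3 CPM in the member-rich cells of Cre- replicates 1 and 3 and Cre+ replicates 2 and 4 against 291, 193, 295 and 220.3 in the member-free cells. Il1a, the cytokine interleukin-1 alpha, had 41.2 ± 18.7 against 449 ± 87.3. Tnfsf13b, the B cell factor BAFF, had 5.22 to 9.03 against 57.2 to 101. These genes were lower in member-rich cells in each mouse, while Hbb-bs, a hemoglobin chain of red cells, had 0.803 against 0.809 in Cre- replicate 1 and 0 against 140.5 in Cre- replicate 3.

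**Figure D4:**
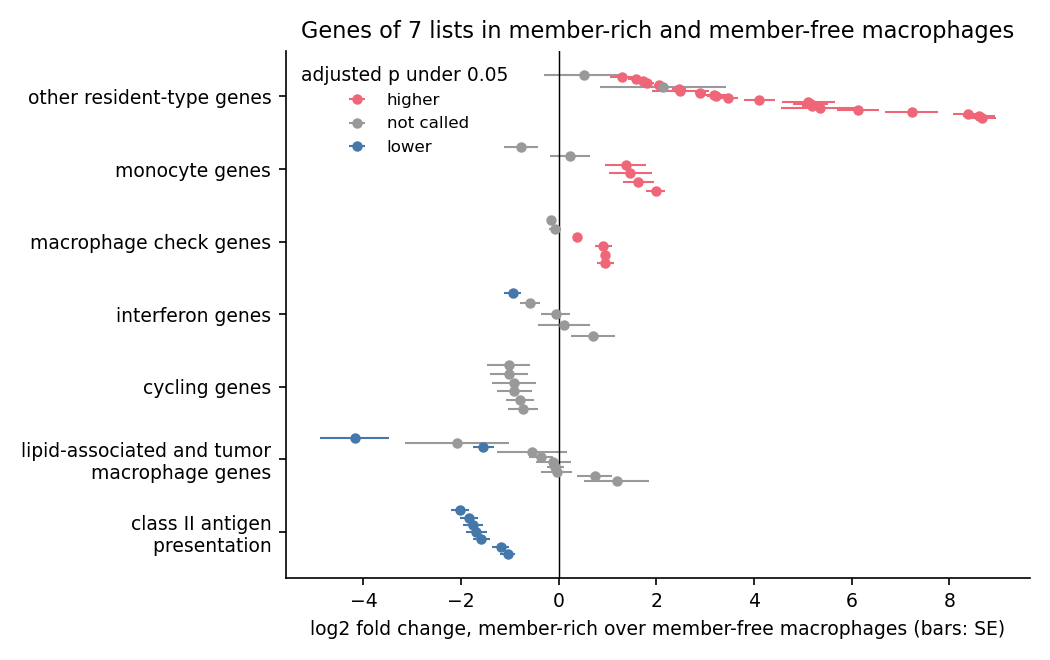
Log2 fold change of each tested gene of 7 lists between member-rich and member-free macrophages of the same 4 mice, with SE bars and colors for an adjusted p under 0.05. The resident-type genes lie to the right of 0, 21 of 23 of them called, and the 7 class II genes lie to the left.

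Markers of other cell types also differed between the sets, and their part in these results was not tested. The dendritic list was higher in member-rich cells, at 0.787, 0.586, 0.947 and 0.267 UMIs per 10000 in Cre- replicates 1 and 3 and Cre+ replicates 2 and 4 against 0.0566, 0.104, 0.067 and 0.0489. This came from Cd209a, which the resident-type list also holds, since Flt3, the defining receptor of dendritic cells, had 0, 5, 1 and 0 UMIs in the member-rich cells. The monocyte list was at 5.63, 4.73, 10.8 and 4.77 in member-rich against 2.09, 1.70, 1.45 and 1.57 in member-free cells, higher in each mouse. The fibroblast list was lower in member-rich cells of 3 mice, at 2.32, 5.65 and 2.81 against 4.90, 12.2 and 8.29, and higher in those of Cre+ replicate 4, at 5.19 against 0.731. The epithelial list was lower in member-rich cells of each mouse, at 1.61, 1.61, 1.64 and 1.29 against 4.39, 2.60, 4.54 and 4.24. Member-rich cells had a median depth of 8905 to 15573.5 UMIs against 12480 to 19299 and a median mitochondrial share of 2.87% to 3.50% against 2.04% to 2.47%. With both sets thinned to 2000 UMIs per cell, 3138 genes were called in place of 5052. The count of resident-type genes called stayed within 1.5 times 21, a wide limit that only a marked loss of calls could break, since 24 genes were listed.

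Over 40 sums of library and class, the genes most like the summed 10 were Plxna4os1 (Pearson r = 0.834), Lgmn (0.827), Hexa (0.807), Cmklr1 (0.796) and Selenop (0.794), among 16435 genes. These values describe log2(CPM + 1), and points of 1 library share its depth. Lgmn and Hexa encode the lysosomal enzymes legumain and hexosaminidase A, and Cmklr1 a receptor for chemerin. Plxna4os1 is an antisense gene, whose reads may belong in part to its partner.

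The genotype comparison in macrophages gave no call among the 10 genes. Frmd8 itself had 25.1 and 24.6 CPM over all kept barcodes of Cre- replicates 1 and 3 and 11.3 and 12.9 in those of Cre+ replicates 2 and 4, which separates the genotypes as the labels do. In macrophages Frmd8 had 25.8 and 23.5 against 18.1 and 13.4 (log2 fold change -0.52 ± 0.19, edgeR unadjusted p = 0.0424, adjusted p = 1.00). With edgeR's quasi-likelihood test on sums per mouse, 0 of 14117 genes (0%) and 0 of the 10 passed, while 364 genes had an unadjusted p under 0.05, and DESeq2 called 20 genes and 0 of the 10. The log2 fold changes of the 10 genes, Cre+ over Cre-, ran from -0.07 (Mrc1) to 0.85 (Cd209f) with standard errors of 0.55 to 1.45. Their median was 0.29 against 0.03 over all genes tested. The Cre+ mice differed from each other by 3.40 to 46.2 times, and the p-values rest on 2 mice per genotype.

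The sign of the comparison depended on which Cre+ mouse was in it. Without Cre+ replicate 2, 10 of the 10 genes were lower in the remaining Cre+ mouse, from -4.21 ± 0.25 for Retnla to -1.09 ± 0.20 for Mrc1 (edgeR adjusted p = 3.31e-05 and 0.00623), in a fit in which 957 (6.51%) of 14703 genes were higher and 1144 (7.78%) lower. Without Cre+ replicate 4, all 10 had positive values, from 0.51 to 1.79, and 4 were called higher, in a fit in which 60 (0.415%) of 14455 genes were higher and 89 (0.616%) lower. Those 4 were Cd209f (1.79 ± 0.32), Ednrb (1.45 ± 0.22), Cd163 (1.34 ± 0.20) and Retnla (1.16 ± 0.21). Both fits assume that the lone Cre+ mouse varies as the Cre- mice do, and they compare single mice.

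**Figure D5:**
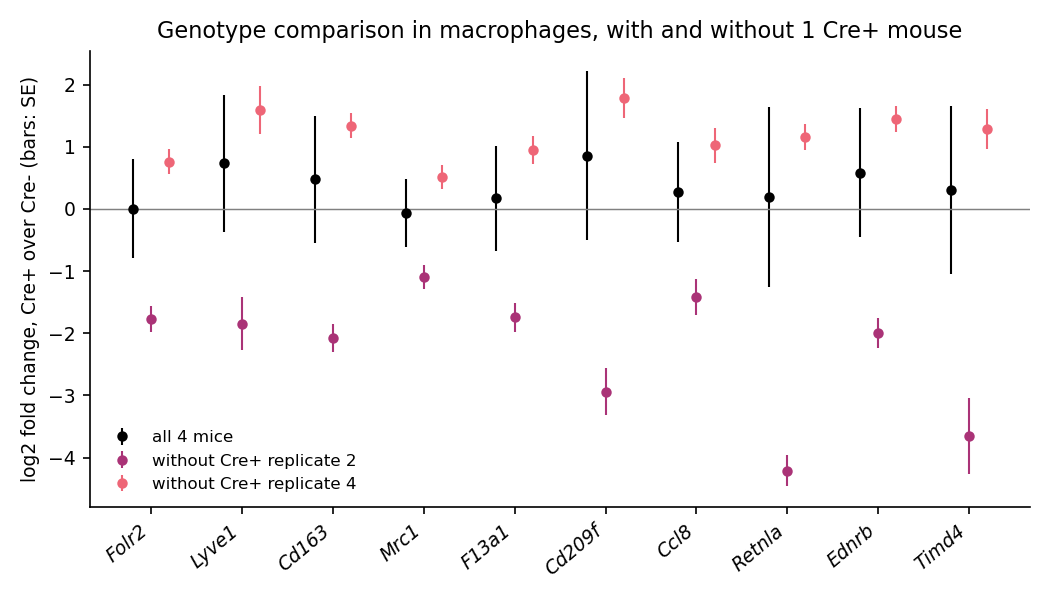
Log2 fold change, Cre+ over Cre-, of each gene in macrophages with SE bars, with all 4 mice (black) and without 1 Cre+ mouse (colors). The values with all mice lie near 0 with wide bars, from -0.07 to 0.85, and those without Cre+ replicate 2 and without Cre+ replicate 4 lie below and above 0.

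Free RNA could be measured only in Cre+ replicate 4, whose nearly empty barcodes (up to 100 UMIs) were deposited. The 10 genes held 1831 of the 4981956 UMIs there, or 368 CPM, against 824 in its macrophages. Summed C1qa, C1qb and C1qc were at 65.2 UMIs per 10000 in these barcodes, above the limit of 10 that defined macrophages. The median in the macrophages of this mouse was 148, and the part of free RNA in the class was not tested. Retnla had 68.6 CPM in the nearly empty barcodes and 61.8 in the macrophages, so its level over all macrophages of this mouse was not above the free RNA. It was above it with the limit on depth (118 CPM) and with C1q of at least 5 per 10000 (73.6 CPM). It stayed below it with C1q of at least 20 per 10000 (57.8 CPM) and with a mitochondrial limit of 10% (62.2 CPM). The order-of-magnitude cell call also left it below, at 48.9 CPM. Within these macrophages Retnla was uneven. It had 506 CPM in member-rich cells, which were chosen in part by Retnla itself. By depth it had 391 in macrophages of 2000 to 5000 UMIs and 1.84 in those of 30000 UMIs or more. Mrc1 had 52.8 against 220.0 and Lyve1 had 1.61 against 13.4, both higher in macrophages. Epithelial barcodes of this mouse held Retnla at 1.14 and Mrc1 at 1.11 CPM. They held C1qa at 15.1 CPM, against 2426 in the nearly empty barcodes.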

How the data were processed

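Single-cell libraries (10x Genomics 3' v3) of mammary tumors of 2 Cre- and 2 Cre+ mice were used, with 1 library per mouse. The deposited files hold counts of UMIs per gene and barcode, which the authors made with Cell Ranger (6.1.2 for replicates 1, 2 and 3, and 4 for Cre+ replicate 4, per the file headers and the submitters' processing notes). These notes name hg38 although the identifiers are those of mouse genes, and the sort gate used before capture is not given in the sources used here. Total UMIs per library were 112729231 to 157662955. Replicates are separate mice, and groups came from the labels. The members and lists were chosen with earlier results of these data known.

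Barcodes with at least 2000 UMIs and at most 20% mitochondrial UMIs were kept. Doublets were kept, without a doublet caller, and barcodes with at least 10 UMIs per 10000 of another lineage's markers were left out in an alternative. Barcodes without 10 C1q UMIs per 10000 took the class with the highest marker sum, if it was at least 5 per 10000. Shares of cells were compared after thinning each cell to 2000 UMIs, and exact binomial intervals (95%) cover counting error only. Levels are CPM, UMIs per 1000000 UMIs of the class.

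Counts summed per mouse were tested over all genes with edgeR 4.0.16 in R 4.3.3 (TMM, filterByExpr, quasi-likelihood test, Benjamini-Hochberg, threshold 0.05), and DESeq2 1.42.0 was an alternative. The SE given with an edgeR log2 fold change is its size divided by the square root of the F statistic. This SE is rough for genes with almost no UMIs in 1 group or set. Shares, levels and the exact permutation test were computed with Python 3.11.15 (numpy 2.4.6, scipy 1.17.1, pandas 2.3.3). The test of genotypes had no block, since Cre- and Cre+ mice share no replicate number. The comparison of member-rich with member-free cells had the mouse as a block, since both sets come from the same mouse. The procedure was tested on simulated data. For the genotype comparison (13850 genes, dispersion 0.0923), 1% of genes changed by 1 and 61% of those changed by 2 on the log2 scale were called. For member-rich against member-free cells (12201 genes, dispersion 0.0254), these shares were 94% and 100%. In both simulations all genes had the same dispersion, and genes with few UMIs were not changed. The simulated sets of the same mouse shared no differences from other mice. The shares are thus not those of real genes that vary more. The 10 members differed by 3.40 to 46.2 times between the Cre+ mice. The share called among genes that vary this much between mice was not tested.

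Genes named were the 10 members, Frmd8, the listed genes, the 10 higher and 10 lower other genes with the largest change among those called, at a mean of at least 20 CPM and the same direction in 4 mice, and the 5 genes most like the summed members. By the rule for the genotype comparison no further gene was named, since 0 were called. Ccl21a was not used, since 2 identifiers carry this symbol. Reads of the Cd209 family, Lyz1 and Lyz2, C4b and the H2 genes may be split between near copies. Alternatives varied the cell call of Cre+ replicate 4, the C1q, mitochondrial and depth limits, the normalization, the filter on low counts, the thinning, the split of cells, the block and each replicate.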

Additional observations from a re-analysis of the deposited data

Results flagged for a closer look

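For 3 genes the difference between member-rich and member-free macrophages had opposite signs in the Cre- and the Cre+ mice. Ly6c2, the Ly-6C antigen of monocytes, was at -11.2 and -12.2 CPM (member-rich minus member-free) in Cre- replicates 1 and 3 and at 1.45 and 0.226 in Cre+ replicates 2 and 4. Vcan, the matrix proteoglycan versican, was at 16.1 and 9.59 in the Cre- mice and at -6.62 and -0.245 in the Cre+ mice. Fcgr1, the high-affinity IgG receptor CD64, was at -11.3 and -24.4 in the Cre- mice and at 19.4 and 5.85 in the Cre+ mice. The difference between genotypes was not tested for these genes.

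The barcodes of Cre+ replicate 4 with up to 100 UMIs, which lie outside the kept barcodes, held the 10 resident macrophage genes at 368 CPM in sum, above the limit of 0.602 that a count of 0 allows. The other 3 libraries were deposited without such barcodes, and the part of this RNA in the macrophage levels was not tested.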

How the results depend on the processing

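In the genotype comparison, 0 genes were called, against 20 with DESeq2 and 7 without a filter on low counts, and leaving out 1 mouse gave 0 to 2101 genes and 0 to 10 of the members (2101 and 10 without Cre+ replicate 2, 149 and 4 without Cre+ replicate 4). The log2 fold change of Folr2 turned negative with the order-of-magnitude cell call (-0.00588), C1q of at least 20 (-0.0228), a mitochondrial limit of 10% (-0.000815), no barcodes of another lineage (-0.0567), RLE size factors (-0.00818) and DESeq2 (-0.00337). Leaving out 1 mouse moved the log2 fold changes over these ranges: Folr2 -1.77 to 0.76, Lyve1 -1.85 to 1.59, Cd163 -2.08 to 1.34, Mrc1 -1.09 to 0.51, F13a1 -1.75 to 0.95, Cd209f -2.94 to 1.79, Ccl8 -1.42 to 1.02, Retnla -4.21 to 1.16, Ednrb -1.999 to 1.45 and Timd4 -3.65 to 1.28, each lowest without Cre+ replicate 2. The difference in the share with at least 3 members ran from -18.0 to 8.65 points, and was -11.8 unthinned. The cause of these shifts was not tested. Member-rich against member-free cells gave 5052 genes, 3138 after thinning (8699 genes tested), 3404 with no replicate block and 3357 (without Cre- replicate 3) to 4507 on leaving out 1 mouse. The count of resident-type genes called stayed within 1.5 times 21 in 17 of 17 alternatives. With 24 genes listed, this limit could not be passed upward, and smaller losses of calls would not show. Of 240 levels under alternatives, 231 moved by less than the spread between mice of a genotype, but that spread is wide in Cre+ mice. The limit on depth moved levels by up to 1.94 times, for Timd4 in Cre+ replicate 4 (0.153 to 0.298 CPM, from few UMIs). Retnla in that mouse moved slightly less, from 61.8 to 118 CPM. The order-of-magnitude cell call applies to Cre+ replicate 4 only. Levels of the other mice under it could not move and are counted among the 231. Paired by number, Cre- and Cre+ mice could not be fitted, since no number is shared. With 2 mice per genotype, only large changes could be called.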
